A study of Mus musculus with 4 samples.

Results

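The genes described here encode the mouse receptors for the constant part of immunoglobulin G, Fcgr1, Fcgr2b, Fcgr3 and Fcgr4, the signalling chain Fcer1g that activating receptors need, and Fcrls, a related scavenger-receptor-like gene whose expression marks microglia. Their accessible regions were taken as all peaks of the 4 deposited lists that overlapped a gene body or the 10 kb on either side (GRCm38, GENCODE M21). Overlapping peaks of the 4 libraries were merged, which gave 72 regions out of 388087 in the whole series. No region lay in more than 1 window. The numbers were 13 regions for Fcgr1, 13 for Fcgr2b, 13 for Fcgr3, 10 for Fcgr4, 8 for Fcer1g and 15 for Fcrls.

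Open chromatin was profiled by ATAC-seq, in which the Tn5 transposase cuts accessible DNA, in microglia sorted by flow cytometry from untreated 3-month-old C57BL/6 mice. There were 2 libraries labelled WT and 2 labelled IRF8KO, and the comparison addressed how accessibility differs when the DNA-binding protein IRF8, one of the interferon regulatory factors, is missing. The labels do not describe the IRF8KO allele and do not say whether replicates came from separate mice, so p-values measure the spread between these libraries, which may be technical.

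Activating Fc receptors bind antibody-coated particles and signal through the tyrosine motif of the Fcer1g chain to kinases of the Src family and Syk. Fcgr1 is the high-affinity receptor, Fcgr3 and Fcgr4 are activating receptors of lower affinity, and Fcgr2b carries an inhibitory motif that recruits the phosphatase Inpp5d. Microglia use these receptors to take up opsonised material. IRF8 binds DNA with the ETS factor PU.1 at composite elements called ETS-IRF here, searched as GGAA and GAAA with 2 bases between them.

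Accessibility is given as normalised pileup, the authors' highest depth of extended cut sites in a region per 1000000 tags of that library. The libraries held 46948938 to 78793572 tags, with a mean depth in IRF8KO 1.51 times that in WT. Over the 58732 regions with a peak in all 4 libraries, the median log2 difference between IRF8KO and WT was -0.31 on this scale, and IRF8KO replicate 1 had the lowest values, with a median log2 deviation of -0.44 from the mean of the libraries. The regions were therefore also compared with every library centred on its median over those regions, which moves each difference by 0.33 towards IRF8KO. A region with no deposited peak in a library has no value there, which does not mean that it was closed.

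Promoters of 7 of the 8 microglia markers examined held a peak in all 4 libraries, and Sall1 held one in 3. Their sum was 24.1 and 17.2 in WT and 8.93 and 15.1 in IRF8KO. P2ry12 fell (log2 difference -1.54; limma adjusted p 0.00766) and was the only 1 of the 7 promoters called, centred or not. Sall1 stood at 2.11 and 2.05 in WT, with no peak in IRF8KO replicate 1 and 0.151 in IRF8KO replicate 2. For 6 markers of border macrophages, the resident macrophages of the meninges and vessels, the summed normalised promoter pileup was 0.958 and 0.675 in WT and 2.84 and 4.50 in IRF8KO, with Cd209f without a peak. Lyve1 stood at 0.170 and 0.143 in WT, had no peak in IRF8KO replicate 1 and stood at 0.151 in replicate 2. In the windows of these 6 genes limma called 2 of 16 regions lower and 2 higher, against 6.82% and 2.8% of all regions, and after centring 2 lower and 6 higher, against 11.7% and 13.5%. There, 8 of 34 regions with a strict peak were present in IRF8KO only and 0 in WT only, against 3.87% and 5.59% of all such regions. Against the same shares, 6 of 78 regions in the windows of the microglia markers were called lower and 3 higher, and centred 14 and 6. For monocyte markers 4 of 12 were called lower and 0 higher, centred or not, and for T or NK cell markers 0 of 5 and 1. Strict regions in WT only and IRF8KO only numbered 9 and 4 of 145 for microglia markers. For monocyte markers they numbered 1 and 0 of 21, and for T or NK cell markers 0 and 2 of 9. The promoter of Pf4 passed the test described below and was higher in IRF8KO (log2 difference 2.03 ± 0.50, SE; limma adjusted p 0.00153). Of 4 monocyte markers, Ly6c2, Ccr2 and Plac8 had no promoter peak in any library, and Vcan fell (-1.33; adjusted p 0.0439). Of 4 T or NK cell markers, Cd3e and Cd3g had none, Ncr1 had one in WT replicate 2, and Klrb1c had peaks in IRF8KO only (0.470 and 0.529). Of the endothelial markers Cdh5 fell (-2.77; adjusted p 2.45e-08), Pecam1 rose (1.66; adjusted p 0.0236) and Cldn5 had a weak peak in 2 libraries. The summed promoter pileup of 4 neutrophil markers was 1.36 and 0.614 in WT and 0.178 and 0.453 in IRF8KO, with S100a9 without a peak, and that of 4 B cell markers 0.916 and 0.716 in WT and 0.622 and 0.483 in IRF8KO, with Cd79a and Ms4a1 without one. For 3 oligodendrocyte markers it was 2.04 and 1.47 in WT and 0.495 and 1.15 in IRF8KO, and for mast cell, astrocyte and neuron markers it was at most 0.511 in any library. Several of these cell types also carry Fc receptors, among them border macrophages, monocytes, neutrophils, B cells, NK cells and mast cells. The part of these markers' cells in the results for the Fc receptor genes was not tested, and in sorted bulk cells a different mix of cells cannot be told apart from a change within each cell. Of the gene targeted in the knockout, Irf8, the promoter pileup was 2.07 and 1.49 in WT and 0.863 and 1.36 in IRF8KO. Because the removed part of Irf8 is not described, this value is no check of the labels.

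There were 11 regions that passed a test of the IRF8KO and WT difference, centred or not, or had strict peaks (−log10 q of at least 2) in both libraries of 1 genotype and no peak in the other, called present in 1 genotype only below. The 8 with the highest mean pileup, with an absent peak taken as 0, are shown as 200 bases around the summit, on the plus strand of GRCm38, with matches to the searched motifs in capitals. The first holds ETS-IRF matches on both strands, at chr3:96300886-96300895 and chr3:96300927-96300936. The Fcer1g region holds a RUNX match (TGTGGTT), the Fcgr2b intron region a pair of PU.1 matches (GAGGAAGT), the Fcrls upstream region a CEBP match (TTGCNNAA) and the Fcrls downstream region an AP-1 match (TGACTCA), on either strand. The other 3 hold none of the motifs searched.
Fcgr1 upstream region, chr3:96300783-96300982: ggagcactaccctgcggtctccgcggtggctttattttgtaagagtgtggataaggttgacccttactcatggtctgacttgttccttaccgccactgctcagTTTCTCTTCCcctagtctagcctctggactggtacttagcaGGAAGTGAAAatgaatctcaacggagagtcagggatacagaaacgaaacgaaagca
Fcer1g intron region, chr1:171231980-171232179: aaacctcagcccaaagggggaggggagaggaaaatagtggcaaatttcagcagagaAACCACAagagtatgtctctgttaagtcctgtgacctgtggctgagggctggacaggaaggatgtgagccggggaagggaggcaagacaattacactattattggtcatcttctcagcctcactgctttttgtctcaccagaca
Fcgr4 upstream region, chr1:171017838-171018037: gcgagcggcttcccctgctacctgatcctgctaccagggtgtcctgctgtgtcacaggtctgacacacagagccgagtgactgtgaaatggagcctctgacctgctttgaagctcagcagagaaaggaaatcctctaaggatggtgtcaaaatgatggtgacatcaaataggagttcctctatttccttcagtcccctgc
Fcgr2b intron region, chr1:170973063-170973262: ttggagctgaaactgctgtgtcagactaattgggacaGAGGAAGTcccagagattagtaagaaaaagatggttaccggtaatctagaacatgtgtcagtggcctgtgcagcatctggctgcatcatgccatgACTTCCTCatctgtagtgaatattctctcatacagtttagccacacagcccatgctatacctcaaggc
Fcgr2b downstream region, chr1:170953254-170953453: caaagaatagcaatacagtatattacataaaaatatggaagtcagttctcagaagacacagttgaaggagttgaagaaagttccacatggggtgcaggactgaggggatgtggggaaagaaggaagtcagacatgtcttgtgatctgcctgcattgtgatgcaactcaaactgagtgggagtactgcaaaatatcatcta
Fcrls upstream region, chr3:87266698-87266897: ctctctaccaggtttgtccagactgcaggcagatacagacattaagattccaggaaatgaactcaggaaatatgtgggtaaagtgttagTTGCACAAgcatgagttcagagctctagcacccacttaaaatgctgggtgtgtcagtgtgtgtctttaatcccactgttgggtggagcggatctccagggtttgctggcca
Fcrls downstream region, chr3:87247499-87247698: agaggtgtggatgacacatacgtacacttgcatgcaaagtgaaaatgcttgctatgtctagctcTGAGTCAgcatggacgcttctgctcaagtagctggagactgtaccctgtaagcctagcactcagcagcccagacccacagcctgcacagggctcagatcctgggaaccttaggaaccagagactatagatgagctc
Fcgr1 intron region, chr3:96292763-96292962: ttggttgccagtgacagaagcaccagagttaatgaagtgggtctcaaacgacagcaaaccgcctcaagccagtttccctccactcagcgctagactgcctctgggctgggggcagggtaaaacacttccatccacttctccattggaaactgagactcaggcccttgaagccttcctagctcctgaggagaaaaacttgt

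Of the 72 regions, 29 had a peak in all 4 libraries, 8 in 3, 16 in 2 and 19 in 1. A strict peak, with a −log10 q of at least 2, was present at 54 regions in at least 1 library. By position of the summit, 26 regions lay in introns, 14 in exons and 32 between genes. Strict peaks were found at 39 and 37 of the regions in WT, and at 37 and 45 in IRF8KO. The groups overlapped in this count.

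**Figure D1:**
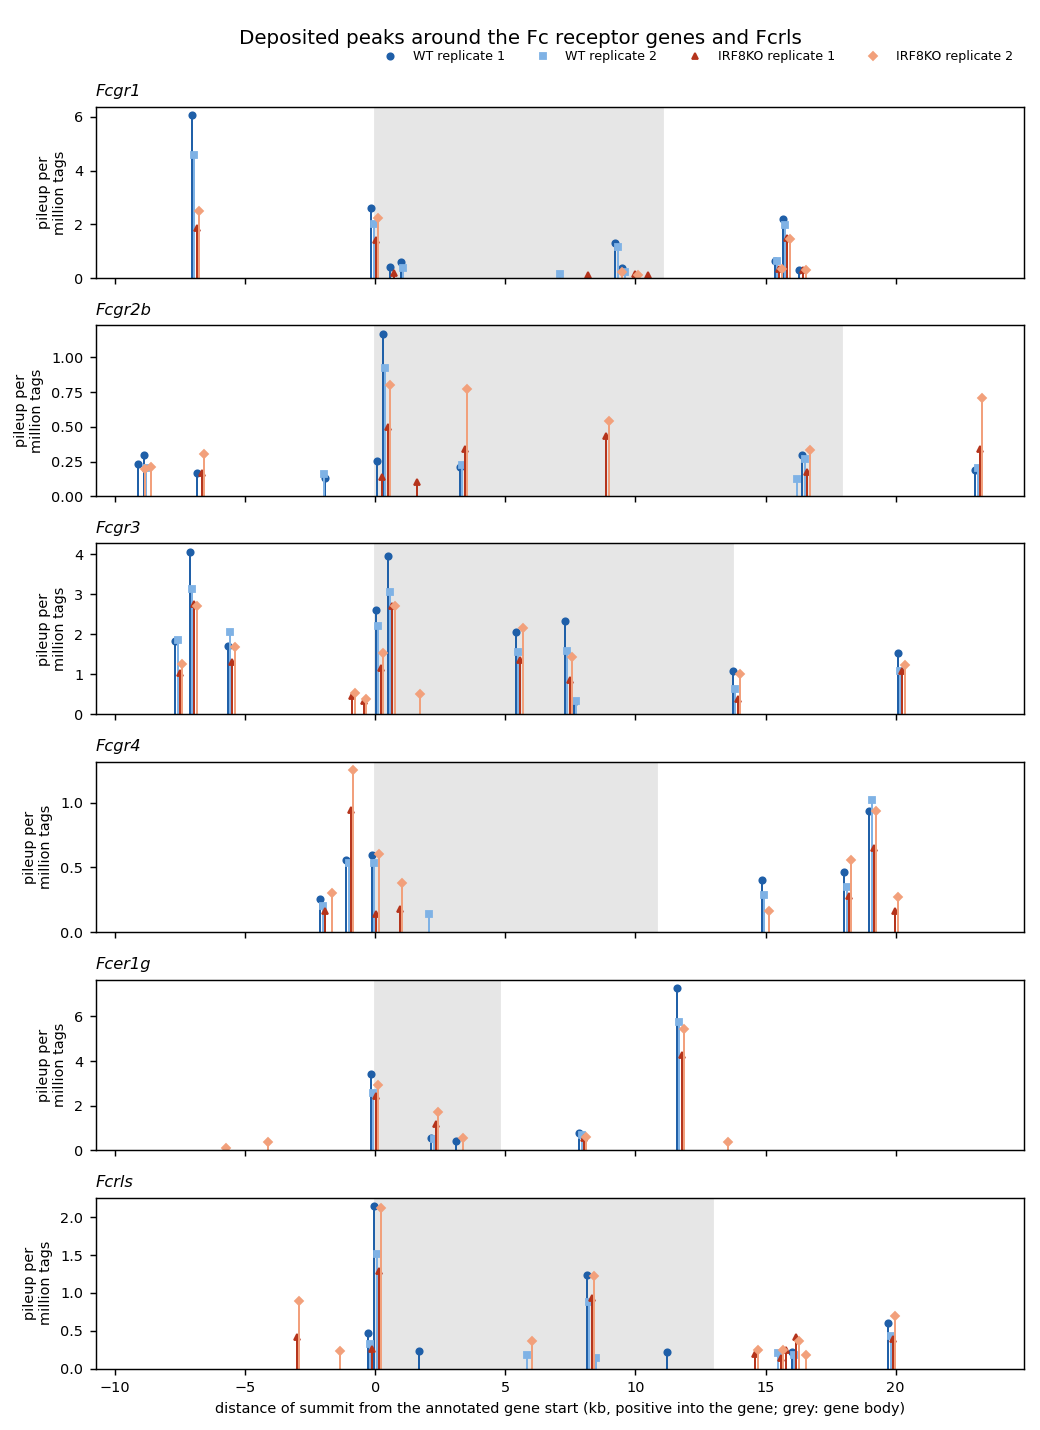
Normalised pileup per 1000000 tags (vertical axis, a scale for each gene) of every deposited peak region against the distance of its summit from the annotated gene start in kb (horizontal axis), for WT replicates 1 and 2 (blue) and IRF8KO replicates 1 and 2 (red), shifted slightly so as not to hide each other; libraries without a peak have no stem and grey marks the gene body. In the Fcgr1 panel the tallest stems stand 6.91 kb upstream, where WT is higher, and in the Fcer1g panel they stand 11.7 kb from the gene start, near Tomm40l.

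The 29 regions with a peak in all 4 libraries were tested by limma on log2 normalised pileup in a fit over all 58732 such regions, with Benjamini-Hochberg adjustment over all of them and a threshold of 0.05. The test called 1 region lower in IRF8KO, upstream of Fcgr1, and 1 higher, in the Fcer1g intron. Over all regions 6.82% were called lower and 2.8% higher. After centring, limma called the same Fcgr1 region lower and 5 regions higher, in Fcer1g, Fcgr2b, Fcgr4 and Fcrls, against 11.7% and 13.5% of all regions. The median log2 difference of the 29 was -0.33, against -0.31 over all regions, and single values ran from -1.29 to 1.42.

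Both IRF8KO values lay below both WT values at 13 of the 29 regions, against 37.2% of all regions, and above them at 5, against 11.8%. After centring the counts were 6, against 27.7%, and 10, against 30.3%. Regions where WT had strict peaks in both libraries and IRF8KO had none in its lists numbered 1 of 54, against 5.59% of all regions with a strict peak. The converse numbered 4, against 3.87%. The counts of regions in 1 genotype only are too small to be read against those shares. None of these counts is a result about the family as a whole.

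**Figure D2:**
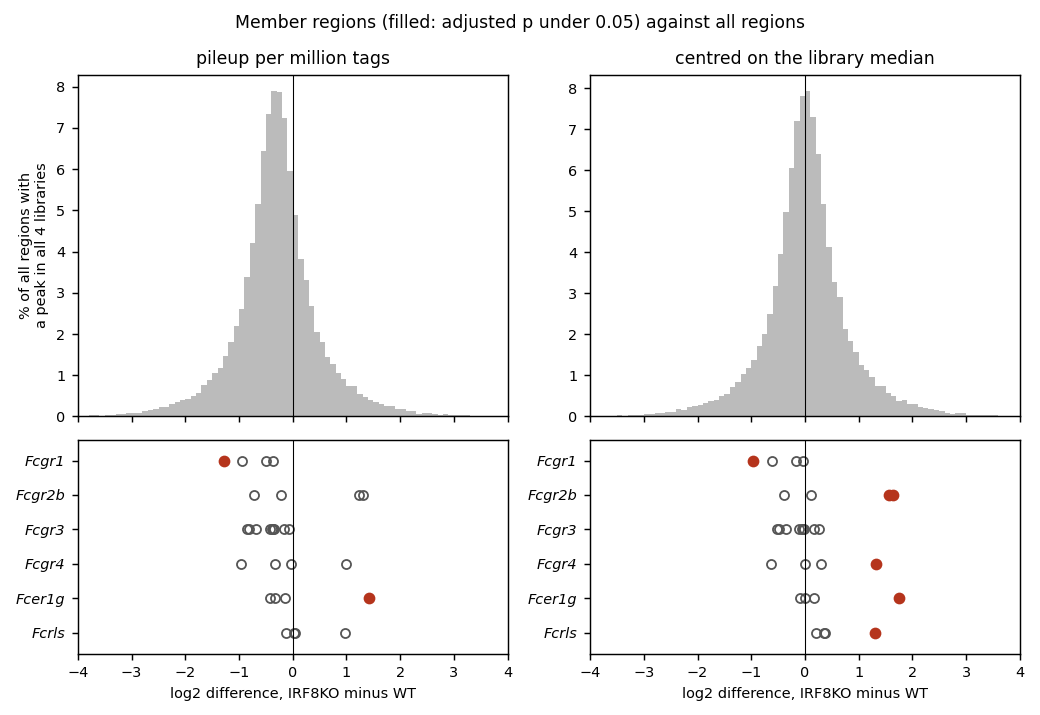
Log2 difference of IRF8KO minus WT (horizontal axis) for all regions with a peak in all 4 libraries (grey bars, percentage of regions) and below for each of the 29 regions of the Fc receptor genes and Fcrls (circles, filled where limma gave an adjusted p under 0.05), by normalised pileup (left) and centred on the library medians (right). The filled circle of Fcgr1 lies at -1.29 on the left and that of Fcer1g at 1.42.

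At Fcgr1, the high-affinity receptor, the strongest region fell in IRF8KO. It lay at chr3:96300472-96301473, between genes and 6.91 kb upstream of the gene start, with a length of 1002 bp. Its pileup was 6.05 in WT replicate 1 and 4.58 in WT replicate 2, compared with 1.85 in IRF8KO replicate 1 and 2.51 in IRF8KO replicate 2. Both IRF8KO libraries stood well below both WT libraries. The fitted level in WT was 2.44 times that in IRF8KO (log2 difference -1.29 ± 0.40, SE; limma adjusted p 0.0195), and after centring the log2 difference was -0.96 ± 0.18 (adjusted p 2.08e-05). This region holds the ETS-IRF pair shown above, of which the matches begin 3 and 44 bp after the summit.

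The call at the Fcgr1 upstream region rested on the scale. By fold enrichment, the authors' ratio of pileup to the library's own local background, the values were 26.5 and 26.6 in WT and 21.4 and 24.1 in IRF8KO, a log2 difference of -0.22 (limma adjusted p 0.461). Without WT replicate 1 the uncentred difference was -1.09 (adjusted p 1.0) and without WT replicate 2 it was -1.49 (adjusted p 0.56). In these fits 1 WT library was left, assumed to vary like the IRF8KO pair, from which alone the spread came. The centred fit kept the call without any single library, with differences from -1.06 to -0.86. With the replicate number as a block the uncentred adjusted p was 0.526 and the centred one 9.09e-06.

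The Fcgr1 promoter region, at chr3:96293393-96294316, was not called. Its pileup was 2.62 and 2.02 in WT and 1.42 and 2.25 in IRF8KO, so the groups overlapped (log2 difference -0.36 ± 0.43, SE; limma adjusted p 0.698; centred -0.04, adjusted p 0.922). The downstream regions at 15.8 and 15.5 kb from the gene start, over an exon of the long non-coding gene Gm42743, had both IRF8KO values below both WT values. The stronger had pileups of 2.22 and 1.96 in WT and 1.48 and 1.46 in IRF8KO, and the weaker 0.639 and 0.654 in WT and 0.343 and 0.332 in IRF8KO. Neither passed the limma test (adjusted p 0.579 and 0.324, and after centring 0.634 and 0.174).

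Inside Fcgr1, some peaks were listed in a single genotype. The intron region shown above, at chr3:96292761-96292934, was the single region among the 72 with strict peaks in both WT libraries and none of any strength in IRF8KO. Its pileup was low, 0.618 and 0.368. A stronger region over a coding exon, at chr3:96284476-96284901 and 9.36 kb into the gene, was singled out after its values were seen. It stood at 1.30 and 1.17 in WT, had no deposited peak in IRF8KO replicate 1 and stood at 0.227 in IRF8KO replicate 2. In counts of cut sites these were 61 and 57 in WT and 15 in IRF8KO replicate 2. Without a value in each library it could not enter the test. Weaker peaks went both ways: the region at chr3:96284304-96284394 had 0.383 and 0.225 in WT and none in IRF8KO, and that at chr3:96283837-96284055 had 0.140 and 0.121 in IRF8KO and none in WT.

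Fcer1g, the common gamma chain, gave the 1 region that passed as higher without centring. It lay in an intron at chr1:171231779-171232270, 2.29 kb from the gene start. Its pileup was 0.554 and 0.511 in WT and 1.19 and 1.71 in IRF8KO, with no overlap between the groups. The fitted IRF8KO level was 2.68 times that of WT (log2 difference 1.42 ± 0.49, SE; limma adjusted p 0.0418), and 1.75 ± 0.25 after centring (adjusted p 1.84e-07). Fold enrichment went the same way, with 3.31 and 3.42 in WT and 7.08 and 8.96 in IRF8KO (log2 difference 1.24, adjusted p 0.0643).

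The uncentred call at the Fcer1g intron was lost in the like fits without WT replicate 1 (log2 difference 1.48, adjusted p 0.837) or WT replicate 2 (1.37, 0.754), with strict peaks only (0.0533) and with the replicate block (0.497). The centred call held without any single library, with log2 differences from 1.64 to 1.81. In contrast, the Fcer1g promoter, at chr1:171234206-171234858, had 3.43 and 2.56 in WT and 2.42 and 2.94 in IRF8KO, and the groups overlapped (log2 difference -0.15 ± 0.41, limma adjusted p 0.883; the sign turned when centred, 0.18 ± 0.19, adjusted p 0.563).

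The tallest region in the Fcer1g window was not at Fcer1g itself. It lay at chr1:171222371-171222972, 115 bp from a start site of Tomm40l, which encodes a mitochondrial import protein. Its pileup was 7.28 and 5.75 in WT and 4.28 and 5.45 in IRF8KO (log2 difference -0.42 ± 0.38, limma adjusted p 0.6; centred -0.10, adjusted p 0.741).

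Fcgr2b, the inhibitory receptor, showed peaks that were higher in IRF8KO away from its promoter. The intron region shown above, 3.38 kb from the gene start, at chr1:170973034-170973384, stood at 0.213 and 0.225 in WT and 0.343 and 0.770 in IRF8KO. A region downstream of the gene, at chr1:170953238-170953538, stood at 0.192 and 0.205 in WT and 0.343 and 0.710 in IRF8KO. Gm38204, another annotated gene, has a start site 210 bp from the intron region. Counts of cut sites were low in WT. The intron region had 10 and 11 there, against 27 and 51 in IRF8KO. The downstream region had 9 and 10, against 27 and 47. The lowest pileup in either WT list was 6. At both regions the groups did not overlap, and IRF8KO replicate 2 was by far the highest. Neither passed the uncentred limma test (log2 differences 1.23 ± 0.52 and 1.32 ± 0.51, SE; adjusted p 0.125 and 0.0846), while both passed after centring (1.56 ± 0.35 and 1.64 ± 0.35; adjusted p 0.000403 and 0.000235). A single library moved these values: uncentred they were 0.65 and 0.79 without IRF8KO replicate 2 (adjusted p 0.33 and 0.228) and 1.81 and 1.84 without IRF8KO replicate 1 (0.00379 and 0.0032). Centred and without IRF8KO replicate 2 the adjusted p-values were 0.0202 and 0.00936.

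A deeper intron region of Fcgr2b, at chr1:170967567-170967981, was present in IRF8KO only. Its pileup was 0.432 and 0.544, 34 and 36 cut sites, with −log10 q of 21.6 and 26.4, and the WT lists held no peak there. It holds the CEBP match TTGCTCAA, 10 bp after the summit. The Fcgr2b promoter region, at chr1:170975820-170976218, went the other way, with 1.17 and 0.920 in WT and 0.495 and 0.800 in IRF8KO. That difference did not pass (log2 difference -0.72 ± 0.50; limma adjusted p 0.453, and 0.297 after centring). The promoter region holds an ETS-IRF match, GGAAGTGAAA at chr1:170976097-170976106, with 22 bp between its start and the summit.

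**Figure D3:**
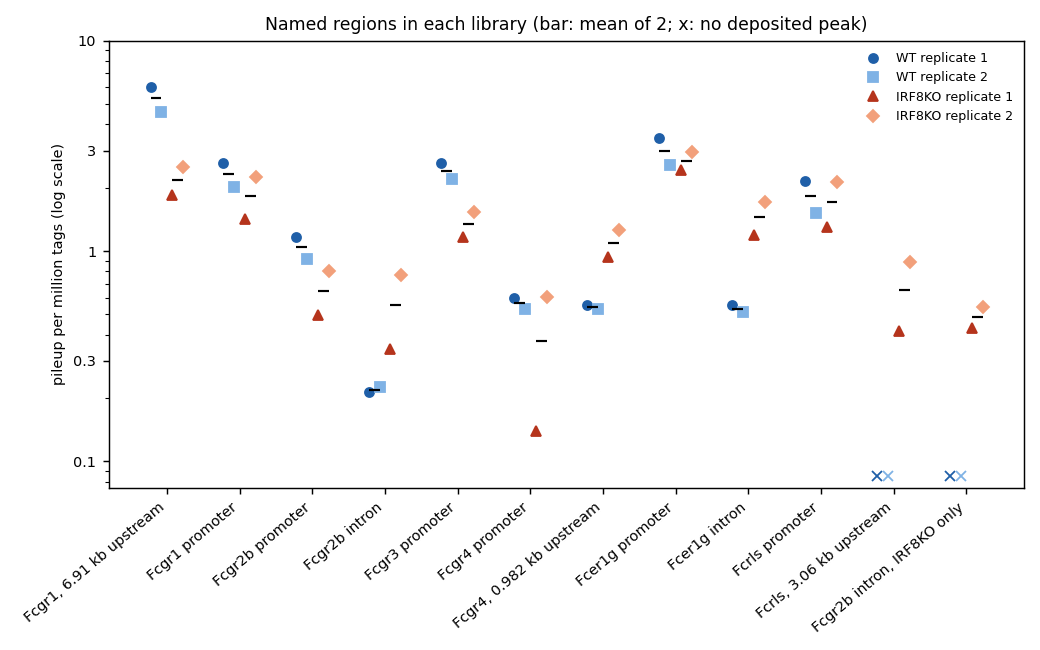
Normalised pileup per 1000000 tags (vertical log axis) of 12 named regions in WT replicates 1 and 2 (blue) and IRF8KO replicates 1 and 2 (red); short bars are means of 2 libraries and crosses at the foot mark libraries with no deposited peak. The Fcgr1 upstream region is lower and the Fcer1g intron region higher in both IRF8KO libraries, while the Fcrls promoter values of the genotypes overlap.

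At Fcgr4, an activating receptor next to Fcgr2b, a region 0.982 kb upstream of the gene start was higher in IRF8KO. It lay at chr1:171017532-171018122 and stood at 0.554 and 0.532 in WT and 0.939 and 1.25 in IRF8KO, without overlap. The log2 difference was 1.0 ± 0.50 (SE; limma adjusted p 0.237) and after centring 1.32 ± 0.27 (adjusted p 8.58e-05). The promoter region at the start site had 0.596 and 0.532 in WT, 0.140 in IRF8KO replicate 1 and 0.604 in IRF8KO replicate 2. IRF8KO replicate 2 thus stood near WT and replicate 1 far below (log2 difference -0.96 ± 0.53, limma adjusted p 0.308; centred -0.63, adjusted p 0.211). The peak in IRF8KO replicate 1 was not strict, with 11 cut sites and a −log10 q of 0.559. The strongest region of the Fcgr4 window, 19.1 kb from the gene start, had 0.937 and 1.02 in WT and 0.647 and 0.936 in IRF8KO (adjusted p 0.767).

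Fcgr3 had the most regions with a peak in all 4 libraries, 9 of 13, and none passed limma's test, uncentred or centred; at an unadjusted p under 0.05 there were 0 and 2. The 9 log2 differences ran from -0.85 to -0.07 and after centring from -0.52 to 0.26. The promoter region, at chr1:171064496-171065111, stood at 2.62 and 2.21 in WT and 1.17 and 1.53 in IRF8KO. Both IRF8KO values were lower (log2 difference -0.85 ± 0.43, SE; adjusted p 0.249, and 0.0536 after centring). An intron region at chr1:171057322-171057675, 546 bp from the nearest start of a shorter transcript, likewise had 2.34 and 1.60 in WT and 0.850 and 1.43 in IRF8KO (adjusted p 0.307). A region at chr1:171059122-171059632, 1 bp from another Fcgr3 start and free of repeated words, had groups that overlapped, with 2.07 and 1.55 in WT and 1.36 and 2.16 in IRF8KO (log2 difference -0.07, adjusted p 0.953; centred 0.26, adjusted p 0.41). A weak region at chr1:171057112-171057232 had 0.319 and 0.327 in WT and no peak in IRF8KO. It holds the ETS-IRF sequence GGAACTGAAA at chr1:171057127-171057136.

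Values at the 5′ end of Fcgr3 are uncertain because its sequence is repeated. Of the 50-base words of the promoter region 73.9% occur more than once in GRCm38, and 95.1% of those of the intron region at chr1:171063881-171064422. Copies lie 7.63 and 15.2 kb further along the chromosome, and the second set falls outside the window. That intron region and its nearer copy, at chr1:171071654-171072048, had almost the same pileup in every library. The first stood at 3.96 and 3.05 in WT and 2.70 and 2.70 in IRF8KO. Its copy stood at 4.07 and 3.13 in WT and 2.75 and 2.72 in IRF8KO, and was the strongest region of the window. The farther copy, at chr1:171079128-171079664, stood at 4.13, 2.64, 2.46 and 2.73 in the same order. Cut sites of the copies cannot be told apart from these lists. In all, 11 of the 72 regions held a repeated 50-base word, 8 at Fcgr3 and 3 at Fcgr4. A region present in IRF8KO only, at chr1:171065725-171065884 (0.457 and 0.529), was wholly repeated.

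Fcrls, the microglial Fc receptor-like gene, had a peak in all 4 libraries at its 2 main regions. The promoter region, at chr3:87263304-87263802, stood at 2.15 and 1.51 in WT and 1.29 and 2.13 in IRF8KO. Within the gene, the intron region at 8.27 kb, at chr3:87255312-87255625, stood at 1.24 and 0.879 in WT and 0.926 and 1.22 in IRF8KO. Both regions overlapped between groups, with log2 differences of -0.12 ± 0.44 and 0.03 ± 0.47 (SE; limma adjusted p 0.912 and 0.981). After centring the promoter difference turned to 0.21 ± 0.21 and the intron difference was 0.36 ± 0.24 (adjusted p 0.54 and 0.316).

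Among the weaker regions around Fcrls, 2 were present in IRF8KO only and 0 in WT only. Of the Fcrls regions with a peak in all 4 libraries, 1 had both IRF8KO values above both WT values and 0 below. The upstream region shown above, 3.06 kb before the gene at chr3:87266643-87266903, was present in IRF8KO only, with 0.419 and 0.891 and −log10 q of 15.1 and 35.3. It holds a CEBP match that starts 11 bp before the summit. A second region in IRF8KO only lay downstream at chr3:87249091-87249254, with 0.190 and 0.242. Also downstream, at chr3:87247453-87247909, a region stood at 0.213 and 0.184 in WT and 0.419 and 0.362 in IRF8KO, with no overlap. Its log2 difference was 0.98 ± 0.50 (limma adjusted p 0.243) and 1.30 ± 0.37 after centring (adjusted p 0.00558, and 0.156 without IRF8KO replicate 1). Others overlapped between groups or had no value in some library. A region 0.163 kb before the gene start stood at 0.469 and 0.327 in WT and at 0.254 in IRF8KO replicate 1, with no peak in replicate 2. A far downstream region at 19.9 kb stood at 0.596 and 0.429 in WT and 0.393 and 0.695 in IRF8KO. Peaks in 1 WT library alone were found at 3 regions, and in 1 IRF8KO library alone also at 3. The region at chr3:87247453-87247909 holds the AP-1 match TGAGTCA at chr3:87247563-87247569.

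None of the 6 promoter regions passed limma's test, at an unadjusted p under 0.05 in 0 of them before and 1 after centring. Ordered by the mean over the 4 libraries, normalised promoter pileup was 2.84 ± 0.45 at Fcer1g, 2.08 ± 0.50 at Fcgr1, 1.88 ± 0.66 at Fcgr3, 1.77 ± 0.43 at Fcrls, 0.847 ± 0.28 at Fcgr2b and 0.468 ± 0.22 at Fcgr4 (SD, n = 4 libraries of both genotypes). The order differed by genotype, with Fcgr3 second in WT (mean 2.41, against 2.32 at Fcgr1) and below Fcgr1 and Fcrls in IRF8KO (1.35, against 1.84 and 1.71). The ranges of neighbours in the pooled order overlapped, except between Fcrls and Fcgr2b.

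The genes with the most similar promoter pileup over the 4 libraries were named by the largest log2 difference in any library, among 12737 protein-coding genes. They were Pbdc1, Slc35b1 and Zfx for Fcrls (0.031 to 0.096) and Rbx1, Ptprs and Cpeb3 for Fcer1g (0.046 to 0.079). For Fcgr1 they were Tmem156, Trappc10 and Rras2 (0.063 to 0.075), for Fcgr3 Gltp, Polr2j and Rprd1b (0.07 to 0.097), and for Fcgr2b Arhgef6, Iqub and Scrt2 (0.077 to 0.13). Fcgr4 had no close match, the nearest being Ctf1 and Il27ra at 0.348.

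Motifs were counted within 100 bp of the summit, on both strands, in the 54 regions with a strict peak and in all 155258 such regions. ETS-IRF was found in 3 of the 54, against 4.30% of all, namely upstream of Fcgr1, at the Fcgr2b promoter and in the weak Fcgr3 intron region. CEBP (TTGCNNAA) was found in 9, or 16.7%, against 9.50% of all. The interferon-stimulated element ISRE (a pair of GAAA with 2 bases between), AP-1 (TGACTCA) and RUNX (TGTGGTT) were found in 3 each, against 3.12%, 5.91% and 5.56%. PU.1 (GAGGAAGT) was found in 2, against 7.73%. In RefSeq promoters of 300 bases (GRCm38.p6), for which all 6 genes matched, ETS-IRF was found at Fcgr2b only, against 2.72% of 32851 promoters, and ISRE and PU.1 at Fcgr4 only, against 3.44% and 3.20%. CEBP was found in 2 promoters, both of Fcgr3, against 10.8%, RUNX at Fcrls, against 5.27%, and AP-1 in none, against 5.20%. These are matches of letters and not measured binding.

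The other genes of the pathway were read from lists of 33 genes. Among 12 genes of activating signalling, all promoters held a peak in all 4 libraries. Limma called 1 promoter lower and none higher, and after centring 1 lower and 1 higher, against 6.82% and 2.8% of all regions before and 11.7% and 13.5% after centring. Vav3, a signalling protein that acts downstream of Syk, fell, with 1.09 and 0.695 in WT and 0.178 and 0.513 in IRF8KO (log2 difference -1.52 ± 0.53, SE; adjusted p 0.0446). The difference was -0.76 without IRF8KO replicate 1 (adjusted p 0.331) and -2.29 without IRF8KO replicate 2 (2.34e-05). The call was also lost without WT replicate 1 (1.0) or WT replicate 2 (0.539), by fold enrichment (0.0566) and with the replicate block (0.422). Centred, the adjusted p was 0.00261, and 0.0582 without WT replicate 1 and 0.109 without IRF8KO replicate 1. Tyrobp, an adaptor with the same kind of tyrosine motif as Fcer1g, stood at 3.54 and 2.52 in WT and 3.20 and 4.29 in IRF8KO, and was called higher only after centring (0.64 ± 0.18; adjusted p 0.00493, and 0.154 without WT replicate 2). Syk, the kinase that binds those motifs, had 1.60 and 1.25 in WT and 0.952 and 1.01 in IRF8KO (adjusted p 0.586).

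For the promoters below, the shares called over all regions were 6.82% lower and 2.8% higher, and after centring 11.7% and 13.5%. Of 8 genes of inhibitory signalling, 7 had a promoter peak in all 4 libraries. None was called before centring and Inppl1, an inositol phosphatase, was called lower after it (-0.92 ± 0.34; adjusted p 0.0355), a call that was lost without any 1 of the 4 libraries (adjusted p 0.0691 to 0.149). Inpp5d, the phosphatase recruited by Fcgr2b, stood at 2.64 and 2.29 in WT and 1.87 and 2.33 in IRF8KO (adjusted p 0.806), so the groups overlapped. Among 8 other antibody-binding receptors, 2 had a promoter peak in all 4 libraries. The promoters of Fcer1a, Ms4a2, Fcer2a, Fcamr and Pigr had no peak in any library. Fcgrt, the neonatal Fc receptor, was called higher after centring (0.61 ± 0.17; adjusted p 0.00568, and 0.188 without WT replicate 2), from 4.20 and 2.92 in WT and 3.71 and 4.92 in IRF8KO.

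Of the 5 Fc receptor-like genes, Fcrl1 alone had a promoter peak in all 4 libraries, with 1.49 and 1.04 in WT and 0.381 and 0.966 in IRF8KO (adjusted p 0.193, and 0.0364 after centring, a call lost without WT replicate 1, WT replicate 2 or IRF8KO replicate 1, with 0.234, 0.0564 and 0.461). The Fcrlb promoter had weak peaks in IRF8KO (0.127 and 0.242) and none in WT, so it could not be tested. In the windows of these 5 genes, limma called 6 of 18 regions lower and none higher, with 3 of the 6 around Fcrlb. In the windows of the genes of activating signalling it called 8 of 127 lower and 1 higher, and of inhibitory signalling 7 of 69 lower and none higher. Over all regions the shares were 6.82% and 2.8%, as given above. Among the 8 other antibody-binding receptors it called none of 11 regions in either direction, with 1 at an unadjusted p under 0.05. After centring the calls were 7 lower and 1 higher for the Fc receptor-like genes, 21 lower and 13 higher for activating and 11 lower and 6 higher for inhibitory signalling, and 0 lower and 1 higher for the other antibody-binding receptors, against 11.7% and 13.5% of all regions. Of the regions with a strict peak in these windows, 6 of 35 at the Fc receptor-like genes were present in WT only and 1 in IRF8KO only, and 5 of 28 and 0 at the other antibody-binding receptors. For activating signalling the counts were 7 and 12 of 234, and for inhibitory signalling 4 and 4 of 119, against 5.59% and 3.87% of all such regions.

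**Figure D4:**
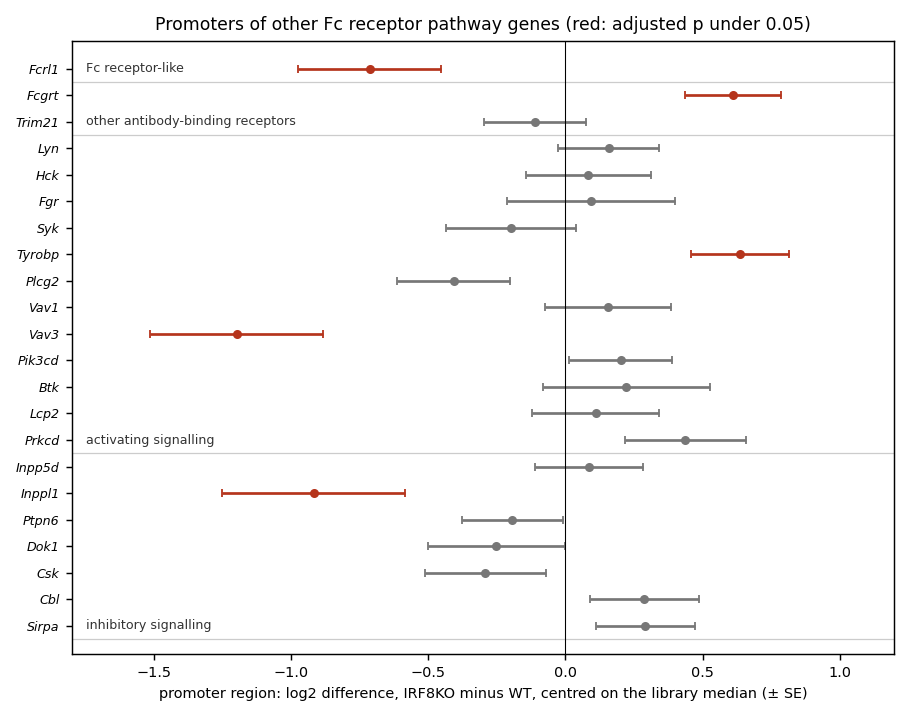
Log2 difference of IRF8KO minus WT at promoter regions, centred on the library medians (horizontal axis, bars: SE), for pathway genes with a promoter peak in all 4 libraries (rows, in 4 lists); red marks an adjusted p under 0.05 by limma. Vav3, Inppl1 and Fcrl1 lie to the left and Tyrobp and Fcgrt to the right, and of these Vav3 alone passed without centring.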

How the data were processed

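ATAC-seq peak lists of 2 WT and 2 IRF8KO libraries were used, 1 list per library. MACS 2.1.1.20160309 was run by the authors on each library, per the file headers, with no control sample, a p threshold of 0.01, cut sites extended to 73 bp and all input tags kept. The submitters' processing notes name Bowtie2 and mm10, and all peaks used lay within the GRCm38 chromosome lengths. The deposited pileup is a signal, a whole-number depth that had not been scaled to the library's size. Fold enrichment was deposited as a ratio to the local background, and q as a −log10 value, although a header line says that no q would be calculated. Setting pileup across libraries assumes that it scales with tag number.

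Overlapping peaks (autosomes and X only) were merged over libraries, and the highest summit gave the value. Limma 3.58.1 in R 4.3.3 (empirical Bayes with a trend) was fitted to all regions with a peak in all 4 libraries. The script was tested on simulated data. Of each gene the strongest and the promoter region (within 500 bp of a start site), regions past the threshold or in 1 genotype only and the 5 largest differences were named. Pileup is limited by counting error at weak regions. Members and lists were chosen with earlier results of these data known.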

Additional observations from a re-analysis of the deposited data

How the results depend on the processing

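Values rest on 2 libraries a genotype, and tag number and tag size (50 bp in WT, 49 bp in IRF8KO) follow genotype. Combined settings and the repeat filter were chosen after seeing the data. For regions called lower and higher the main counts of 1 and 1 became 1 and 5 when centred, 0 and 0 by fold enrichment, 1 and 0 with strict peaks only, 2 and 2 with summits joined within 100 bp, and 0 and 1 with 5 kb flanks, where fewer regions enter. Leaving out a replicate gave 0 to 4 lower and 0 to 3 higher, and centred 1 to 3 and 4 to 5. The WT-only count of 1 became 3 with strict peaks only, 3 where absent meant no strict peak, 0 at a −log10 q of 5, and 2 to 4 without a replicate. The IRF8KO-only count of 4 became 2 at a −log10 q of 5 and 4 to 9 without a replicate. The 13 regions lower in both IRF8KO libraries became 6 when centred, 7 with 5 kb flanks, 7 without repeated regions and 13 to 26 without a replicate. The 5 higher ones became 10 when centred and 5 to 11 without a replicate. Without a replicate 1 library stood for a genotype and a peak was needed in fewer libraries, which loosens these counts at every region. No share over all regions is given for the settings of this paragraph other than the main and centred ones. Their counts are therefore not a result about the members.

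For the strongest region of each gene, the Fcgr1 difference of -1.29 was -0.22 by fold enrichment and -1.51 to -1.07 without a replicate. The Fcrls difference of -0.12 reversed to 0.21 when centred and ran from -0.48 to 0.24 without a replicate, and from 0.052 to 0.29 when also centred. Centred, Fcgr4 reached 0.16 without WT replicate 2, and without IRF8KO replicate 2 Fcgr4 reached 0.049, Fcgr3 0.27, Fcer1g 0.049 and Fcrls 0.17. Of the 6 strongest regions only that of Fcgr1 passed the threshold in any setting run. The cause was not tested.

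With the replicate block 0 member regions were called in either direction, the Fcgr1 difference stayed at -1.29 (adjusted p 0.526), and calls over all regions went from 5651 to 1197. Centred with the replicate block 1 was called lower and 5 higher, and Fcrls stood at 0.21. The samples share only a number: replicate 1 minus 2 correlated at 0.0025 between genotypes over 58732 regions.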
